A study of Mus musculus with 6 samples.

Results

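The genes of the B cell antigen receptor complex and its proximal signalling pathway were followed in splenic naive B cells of TET2 knockout and wild-type mice. They comprised 30 genes for receptor chains, coreceptors, kinases, adaptors, lipid enzymes, phosphatases and the relays downstream of them, each found by its gene name. All 30 were among the 41053 gene names counted, and all 30 were among the 13604 that passed the filter on low counts and were tested.

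The B cell receptor is a membrane immunoglobulin that binds antigen and has almost no cytoplasmic part of its own. It signals through the Cd79a and Cd79b chains, whose tails carry paired tyrosines. SRC family kinases (Lyn, Blk, Fyn) phosphorylate these tyrosines and Syk docks on them. Syk and Btk then act through the adaptor Blnk on the phospholipase Plcg2, which opens calcium, RAS and NF-kappaB branches. Inhibitory receptors such as Cd22 and Cd72 recruit phosphatases that oppose the kinases. Naive B cells need a low tonic signal of this receptor to survive, and the same pathway sets their response to antigen.

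RNA was sequenced from naive B cells of the spleen of C57BL/6 mice, in 3 libraries labelled TET2 knockout and 3 labelled wild type, numbered 2, 3 and 4 within each genotype. TET2 oxidizes 5-methylcytosine in DNA, and the question of the series is which transcripts differ when it is lost. The labels give no treatment, age or sex, neither the deleted part of the gene nor the cells in which it was deleted, and nothing on whether libraries of a genotype came from different animals. The p-values therefore rest on a spread among libraries that could be technical. Levels are given as CPM, counts relative to the library total, scaled by the trimmed mean of M-values.

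Total counts per library ranged from 35101788 to 45401781. Tet2 itself was at 59.4, 64.8 and 50.04 CPM in the knockout libraries, against 74.7, 83.3 and 56.8 CPM in wild type, so the genotypes overlapped. With exons counted together, this level does not check the labels. Kdm5d, on the Y chromosome, ranged from 23.3 to 34.9 CPM across knockout libraries, while no wild-type library exceeded 0.06 CPM. Xist, on the X chromosome, stood at 852, 887 and 802 CPM in knockout libraries 2, 3 and 4. Its wild-type levels were higher, at 1537, 1488 and 1443 CPM. Each knockout library therefore held both transcripts. Whether it mixed cells of male and female animals was not tested. Genotype and sex composition cannot be told apart. The B cell markers (11 of 12 found) summed to between 30899.9 and 40236 CPM in every library. Of the 12 T cell markers, 11 (without Lck, which B cells also express) summed to at most 1.98 CPM in any library, and Cd3e was at most 0.07 CPM. The monocyte and macrophage markers summed to 23.1 to 33.9 CPM, and the neutrophil markers to at most 0.843 CPM. In both genotypes library 4 lay away from libraries 2 and 3 on the second principal component (31.5% of the variance). The first component (38.6%) followed genotype. What the library number marks is not given in the labels.

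The receptor genes were among the most abundant transcripts of these cells. In wild type the 30 genes took 2.33 to 2.35% of all counts, and in knockout 2.3 to 2.52%. Per length, as CPM per kilobase of summed exon length (RPKM), 26 of the 30 stood at or above the 90th percentile of tested genes in wild type. Cd79b was highest (1476 ± 118 RPKM, mean ± SD, n = 3) and Cd79a second (1046 ± 72.9 RPKM). Cd37, a tetraspanin of the B cell surface, followed at 475 ± 45.1 RPKM. The phosphatase gene Ptpn6 stood at 413 ± 9.31 RPKM and the inhibitory receptor Cd22 at 392 ± 61.4 RPKM. The lowest levels were those of Fyn (17.4 ± 1.32 RPKM, at percentile 73.2), Cbl (29.2 ± 2.79 RPKM) and Vav2 (31.7 ± 1.51 RPKM). Of the 29 pairs of neighbours in this order, 17 had overlapping wild-type ranges, so their order is not resolved by 3 libraries. Ptpn6 and Cd22 form such a pair, as do the B cell adaptor Bank1 (265 ± 14.1 RPKM) and the kinase Blk (284 ± 17.9 RPKM). The order was nearly the same in knockout, where 5 genes moved by more than 1 rank. Malt1 moved most, from rank 20 to 23.

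**Figure D1:**
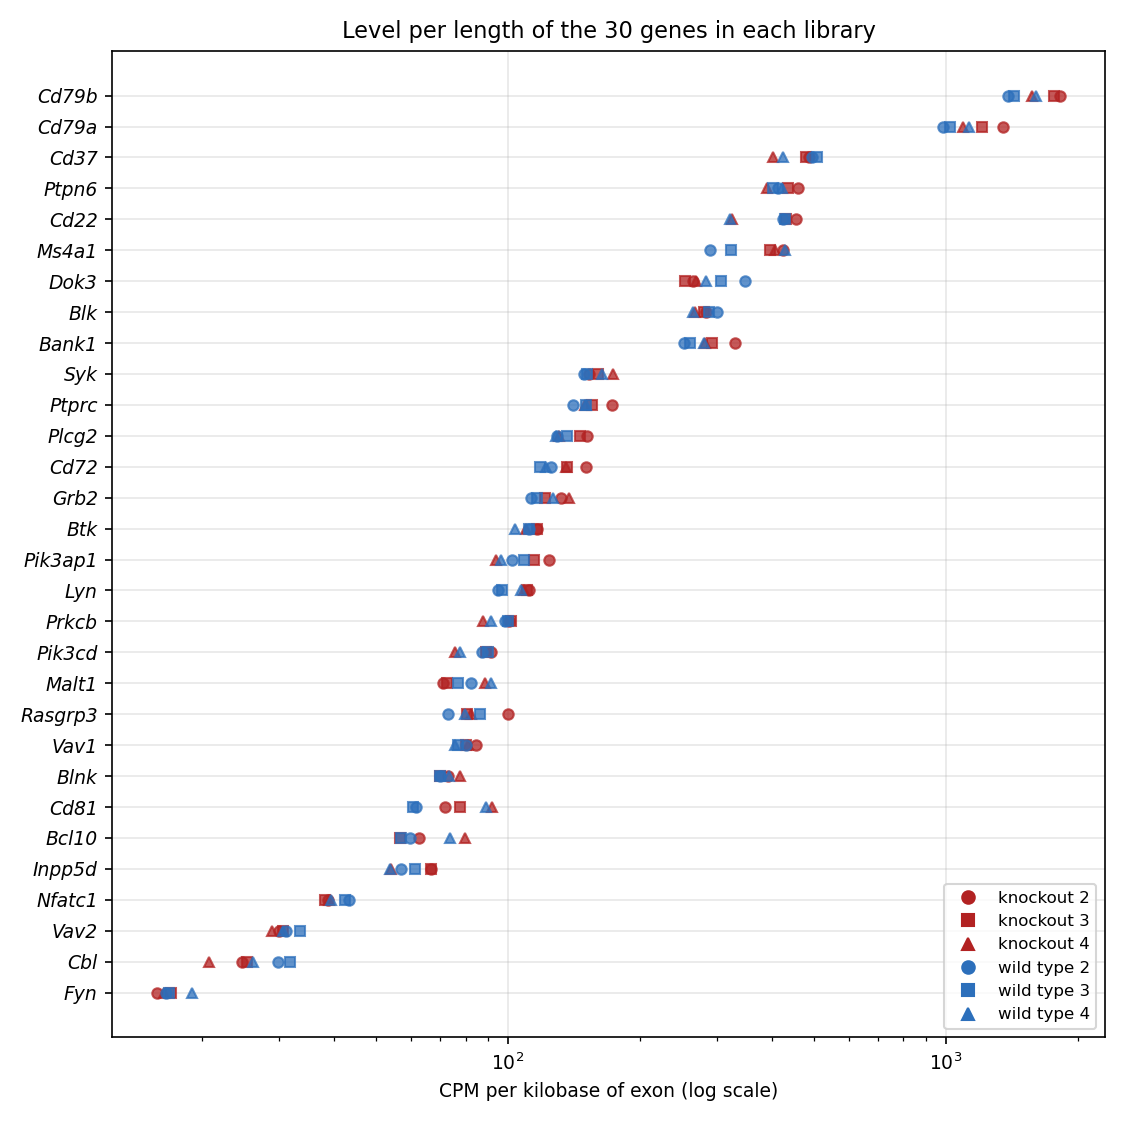
Wild-type and knockout levels per length (RPKM, log axis) of the 30 genes, ordered by the wild-type mean; each point is 1 library. Cd79b and Cd79a lead with at least 987 RPKM in every wild-type library, and Fyn closes the order at 17.4 RPKM in wild type.

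None of the 30 receptor pathway genes passed the threshold between the genotypes. Of the 30 genes, 0 were called (edgeR quasi-likelihood test, adjusted p under 0.05 over all tested genes), where 55 of 13604 genes (0.404%) were called in all, 0.184% higher and 0.221% lower. DESeq2 also called 0 of the 30, where it called 2.73% of all genes, and limma-voom 0, where it called 0.353%. An unadjusted p under 0.05 was found for 3 of them (10%), Cd72, Dok3 and Cbl, and for 13.4% of all tested genes. The log2 changes (knockout minus wild type) ran from −0.31 for Cbl to 0.24 for Ms4a1, with a median of 0.07 beside −0.01 over all tested genes. They were above 0 for 21 of the 30 genes (70.0%) and for 48.8% of all tested genes. The 95% interval of the log2 change lay within −0.53 and 0.55 for every one of the 30 genes. A change of 1.5-fold or more (0.58 on the log2 scale) was therefore outside the interval of each gene. In RNA from whole cell populations, fewer cells of a type and less RNA per cell cannot be told apart.

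**Figure D2:**
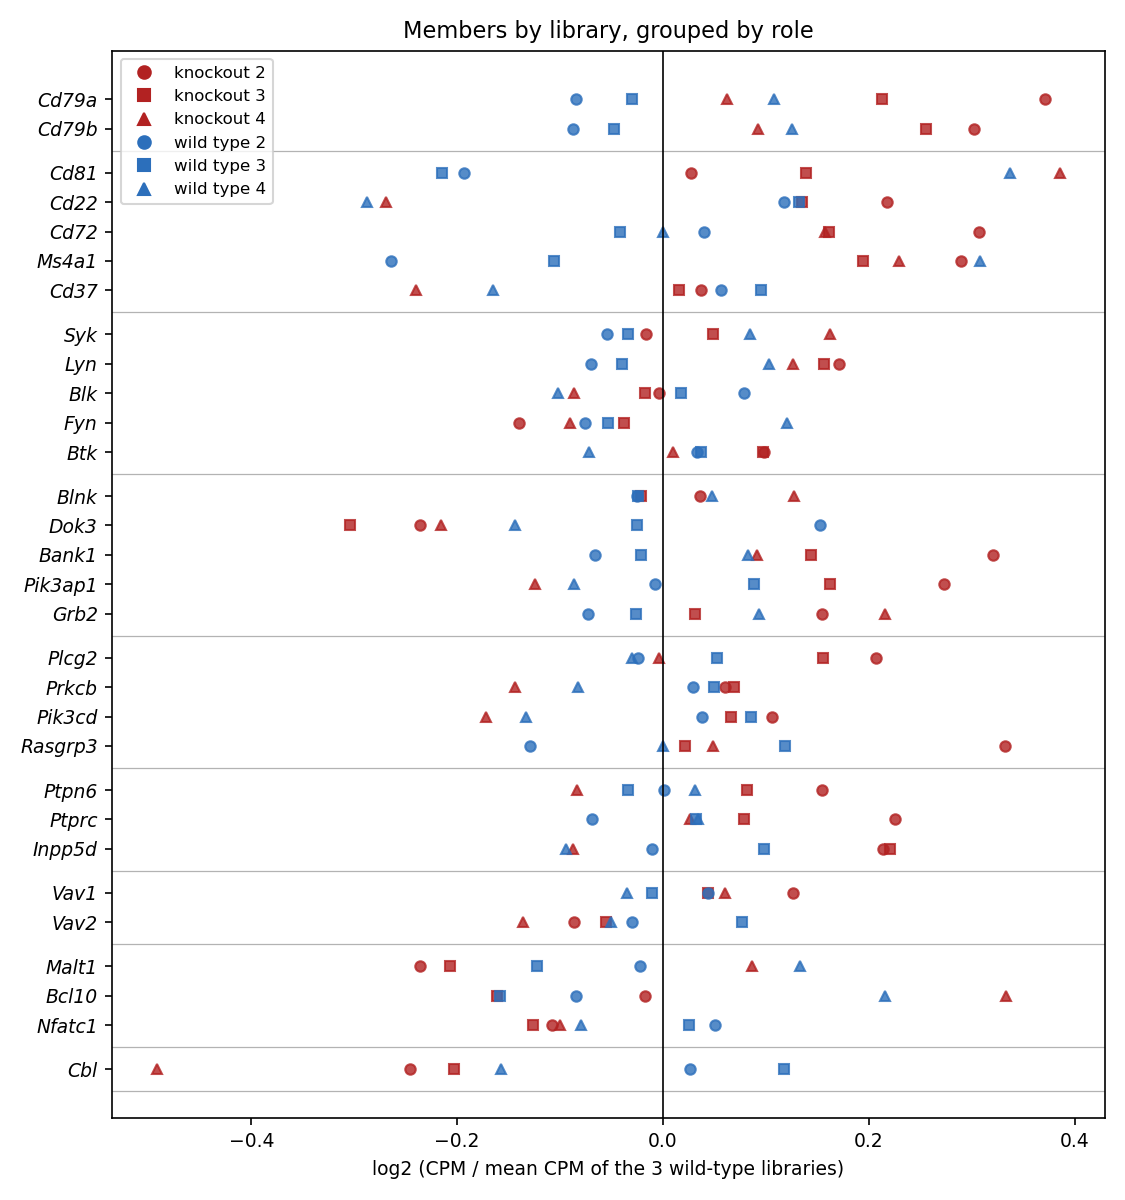
Each library's level of each gene as log2 of its CPM over the mean of the 3 wild-type libraries, with the genes grouped by role from the receptor chains to Cbl. Knockout points of Cd72, Lyn and Bank1 lie to the right of all wild-type points, and those of Dok3, Vav2, Nfatc1 and Cbl to the left; the libraries numbered 4 (triangles) often lie together.

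The genotypes did not overlap for 7 of the 30 genes (23.3%), where 18.5% of all tested genes did not overlap. The knockout libraries were the higher ones for Cd72, Lyn and Bank1, 3 of the 30 beside 10.2% of all tested genes. They were the lower ones for Dok3, Vav2, Nfatc1 and Cbl, 4 of the 30 beside 8.28% of all. Promoter sequence of Cd72, Bank1, Dok3, Vav2 and Cbl was taken from RefSeq (GRCm38.p6), because TET enzymes act on methylated cytosines of CpG dinucleotides. Each run is the 250 bases before the annotated start, written 5′ to 3′ on the gene's strand, with CpG dinucleotides in capitals. No methylation was measured here.
Cd72 (chr4:43454627-43454876, minus strand): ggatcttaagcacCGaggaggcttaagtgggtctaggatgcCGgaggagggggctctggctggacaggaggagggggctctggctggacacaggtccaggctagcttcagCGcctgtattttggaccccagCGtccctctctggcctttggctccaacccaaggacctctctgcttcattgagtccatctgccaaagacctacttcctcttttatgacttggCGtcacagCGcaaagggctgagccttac
Bank1 (chr3:136326067-136326316, minus strand): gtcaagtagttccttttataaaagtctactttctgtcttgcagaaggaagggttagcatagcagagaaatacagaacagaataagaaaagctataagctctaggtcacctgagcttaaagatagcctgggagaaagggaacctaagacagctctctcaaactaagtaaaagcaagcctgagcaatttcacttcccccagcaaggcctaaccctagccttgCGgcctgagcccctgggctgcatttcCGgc
Dok3 (chr13:55528539-55528788, minus strand): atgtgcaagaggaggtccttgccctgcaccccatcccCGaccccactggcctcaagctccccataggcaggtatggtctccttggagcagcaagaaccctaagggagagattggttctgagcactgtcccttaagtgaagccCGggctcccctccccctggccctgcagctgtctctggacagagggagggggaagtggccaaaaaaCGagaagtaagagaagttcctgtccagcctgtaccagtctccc
Vav2 (chr2:27427609-27427858, minus strand): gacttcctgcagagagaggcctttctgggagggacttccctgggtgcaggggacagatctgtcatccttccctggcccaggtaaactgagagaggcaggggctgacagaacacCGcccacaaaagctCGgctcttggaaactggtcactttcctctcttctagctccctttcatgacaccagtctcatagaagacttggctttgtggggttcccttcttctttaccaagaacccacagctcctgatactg
Cbl (chr9:44234047-44234296, minus strand): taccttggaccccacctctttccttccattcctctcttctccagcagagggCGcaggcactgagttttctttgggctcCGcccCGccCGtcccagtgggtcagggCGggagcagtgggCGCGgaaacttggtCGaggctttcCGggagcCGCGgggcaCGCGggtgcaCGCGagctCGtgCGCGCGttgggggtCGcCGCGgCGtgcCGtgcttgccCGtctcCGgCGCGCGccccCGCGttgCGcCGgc
The Cbl window held 33 CpG, the most of any member window, and the windows of Cd72, Dok3, Bank1 and Vav2 held 6, 3, 2 and 2. The counted exons of Vav2 begin, on its minus strand, at position 27427033. The Vav2 window, from 27427609, lies upstream of that position and does not adjoin it.

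Of the 30 genes, 24 matched the RefSeq promoter table, with 30 windows. The median was 6 CpG per window, the same as over all 32851 windows of the table. A ratio of observed to expected CpG of at least 0.6 was found in 9 of the member windows (30%) and in 34.0% of all windows. Motifs were searched on both strands. The octamer ATGCAAAT, bound by the factors Oct-1 and Oct-2, was in the windows of Blnk and Prkcb (6.67% of windows, beside 1.60% of all). The palindromic consensus of the B lineage factor EBF1 was in the Cd22 window (3.33%, beside 0.779% of all). GC boxes (GGGCGG) were in 12 windows (40.0%, beside 32.7%), among them those of Cbl and Vav2. TATAAA was in 4 (13.3%, beside 12.4%), among them that of Bank1. None of these motifs contains another. A match describes the letters and not a bound site.

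The receptor chains themselves were not called in either direction. Cd79a (chr7:24897381-24902197, plus strand) and Cd79b (chr11:106311341-106314762, minus strand) encode the signalling heterodimer of the receptor. Cd79a was at 1973, 1767 and 1592 CPM in the knockout libraries (2, 3 and 4), against 1437, 1493 and 1643 CPM in wild type. Wild-type library 4 stood above knockout library 4 and so the genotypes overlapped. The log2 change was 0.22 (SE 0.10, edgeR adjusted p = 0.392). Cd79b was at 2604, 2522 and 2253 CPM in knockout, against 1988, 2044 and 2305 CPM in wild type, with a log2 change of 0.22 (SE 0.10, edgeR adjusted p = 0.376). Its libraries lay in the same arrangement, with wild-type library 4 above knockout library 4. The ratio of Cd79a to Cd79b per length stayed between 0.688 and 0.744 in all 6 libraries.

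The membrane immunoglobulin that pairs with these chains is encoded by genes outside the 30. Ighm, the mu heavy chain gene, was at 8037 ± 761 CPM in knockout, against 6811 ± 458 CPM in wild type, a log2 change of 0.24 (SE 0.11, edgeR adjusted p = 0.383). Igkc, the kappa light chain gene, differed by 0.26 (SE 0.12, edgeR adjusted p = 0.378). Neither passed the threshold. The 8 B cell markers outside the 30 genes summed to 33033, 31828 and 28769 CPM in knockout, against 25686, 27120 and 26953 CPM in wild type. The genotypes did not overlap in this sum. Of all 11 B cell markers found, 9 had a positive log2 change (median 0.20), where 48.8% of all tested genes had one. Without Cd74 and Ighm, the remaining 6 markers summed to 5666 to 6398 CPM in knockout, against 5923 to 6045 CPM in wild type, and overlapped. The part of B cell content in the values of the receptor genes was not tested.

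**Figure D3:**
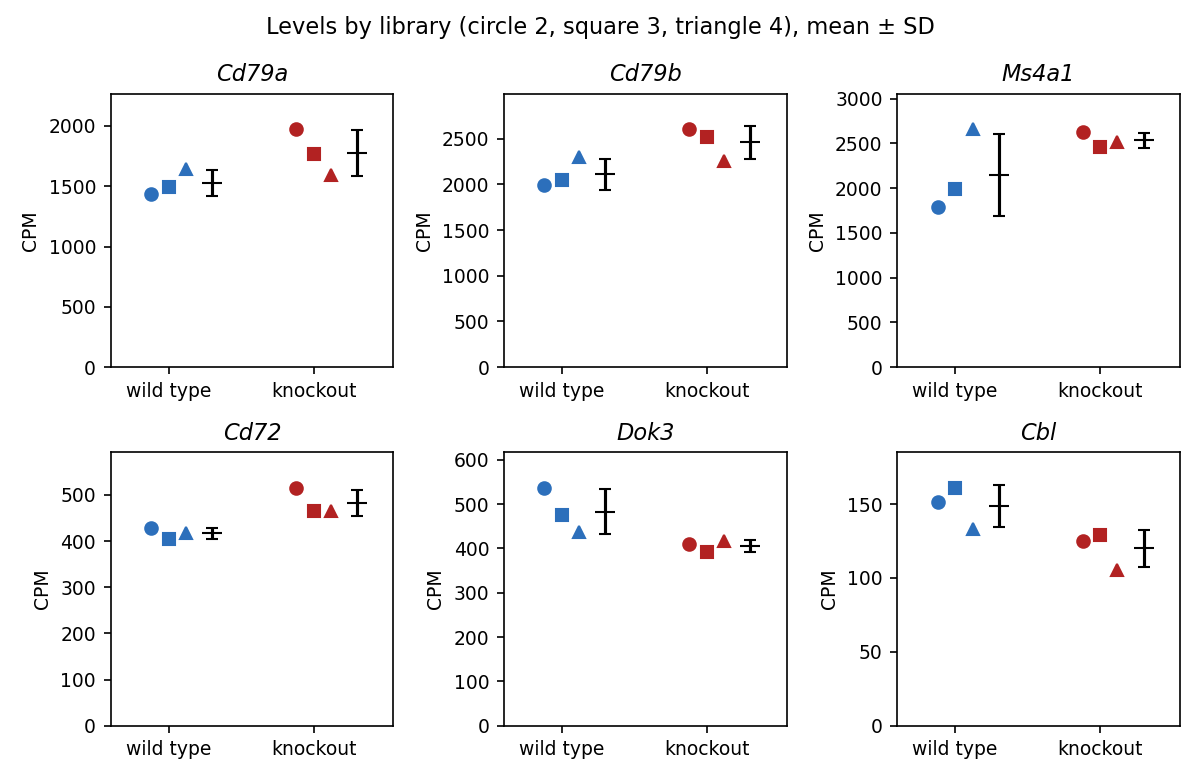
Levels (CPM, axis from 0) of Cd79a, Cd79b, Ms4a1, Cd72, Dok3 and Cbl in each library, with the mean ± SD of the 3 libraries of each genotype beside the points. The genotypes overlap for Cd79a, Cd79b and Ms4a1, where wild-type library 4 is the highest of its group, and do not overlap for Cd72, Dok3 and Cbl.

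Among the coreceptors, Ms4a1 had the largest SD in wild type in CPM (455). Ms4a1 (chr19:11249675-11266241, minus strand) encodes CD20, a tetraspan protein of the B cell surface. It was at 2626, 2459 and 2518 CPM in knockout, against 1789, 1996 and 2659.8 CPM in wild type. Wild-type library 4 exceeded all 3 knockout libraries, and the other wild-type libraries lay below them. The log2 change was 0.24 (SE 0.14, edgeR adjusted p = 0.490). Without wild-type library 4 the log2 change was 0.42 (edgeR adjusted p = 0.0277), in a fit that called 900 genes in all, beside 55 in the main fit. With any other library left out it was 0.12 to 0.26 (edgeR adjusted p from 0.481 to 0.910). Cd72 (chr4:43446462-43454628, minus strand), an inhibitory receptor that recruits the phosphatase SHP-1, was at 515, 466 and 465 CPM in knockout, against 428, 405 and 417 CPM in wild type. All 3 knockout libraries lay above all 3 wild-type libraries, by 1.16-fold in the fit (log2 change 0.21, SE 0.07, edgeR adjusted p = 0.292). Of its exon bases, 41.6% are shared with Tesk1 on the other strand (mean 31.7 CPM), and the counts do not separate strands.

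Cd22, a sialic acid-binding inhibitory receptor, was at 2273, 2147 and 1622 CPM in knockout, against 2121, 2142 and 1601 CPM in wild type. Both libraries numbered 4 were low, and the genotypes overlapped (log2 change 0.04, SE 0.15, edgeR adjusted p = 0.927). Cd81, a tetraspanin of the B cell surface, was at 163, 176 and 209 CPM in knockout, against 140.0, 138 and 202 CPM in wild type, and here both libraries numbered 4 were high. Its log2 change was 0.19 (SE 0.15, edgeR adjusted p = 0.613). Cd37 was at 1616 ± 167 CPM in knockout, against 1681 ± 159.6 CPM in wild type (log2 change −0.06, SE 0.11, edgeR adjusted p = 0.853).

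None of the 5 kinases was called. Syk, which docks on the phosphorylated receptor tails, was at 1518 ± 95.6 CPM in knockout, against 1449 ± 76.7 CPM in wild type (log2 change 0.07, SE 0.09, edgeR adjusted p = 0.766). Lyn (chr4:3678115-3813122, plus strand), the SRC family kinase that both starts and restrains receptor signals, was at 456, 451 and 442 CPM in knockout, against 386, 394 and 435 CPM in wild type. The genotypes did not overlap, although knockout and wild-type libraries 4 were close (log2 change 0.15, SE 0.07, edgeR adjusted p = 0.416). Blk, a B lineage SRC family kinase, was at 686 ± 20.9 CPM in knockout, against 703 ± 44.2 CPM in wild type (log2 change −0.04, SE 0.08, edgeR adjusted p = 0.873). Fyn differed by −0.09 (SE 0.08, edgeR adjusted p = 0.652). These 3 SRC family genes together summed to 1175 to 1226 CPM in knockout, against 1172 to 1199.8 CPM in wild type. Btk, the X-linked TEC family kinase that activates Plcg2, was at 360.4 ± 12.5 CPM in knockout, against 344 ± 14.5 CPM in wild type (log2 change 0.07, SE 0.07, edgeR adjusted p = 0.699).

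Ratios within the SRC family were also read. The ratio of Lyn to Fyn per length was 7.08, 6.53 and 6.63 in knockout and 5.73, 5.76 and 5.64 in wild type, so the genotypes did not overlap. The ratio of Lyn to Blk was 0.395, 0.395 and 0.406 in knockout and 0.316, 0.337 and 0.404 in wild type, where only wild-type library 4 reached the knockout values. These ratios are descriptions of 3 against 3 libraries, chosen from 9 ratios computed, and no test was made of them.

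None of the 5 adaptors was called. The genotypes did not overlap for 2 of them, Dok3 and Bank1, in opposite directions, where 18.5% of all tested genes did not overlap. Blnk, the scaffold between Syk and Plcg2, was at 440.4 ± 22.9 CPM in knockout, against 426 ± 12.4 CPM in wild type (log2 change 0.05, SE 0.07, edgeR adjusted p = 0.799). Dok3 (chr13:55523235-55528538, minus strand), an inhibitory adaptor that recruits the lipid phosphatase SHIP1, was at 410.1, 391 and 416 CPM in knockout, against 537, 475 and 437 CPM in wild type. Each wild-type library lay above each knockout library, and wild-type library 4 was the nearest to them. The level in knockout was 0.840-fold of wild type (log2 change −0.25, SE 0.09, edgeR adjusted p = 0.289). Bank1 (chr3:136053363-136326046, minus strand), an adaptor that binds Lyn, was at 1073, 949 and 915 CPM in knockout, against 821, 847 and 910.0 CPM in wild type. The genotypes did not overlap, but knockout library 4 exceeded wild-type library 4 by little (log2 change 0.19, SE 0.09, edgeR adjusted p = 0.400). Pik3ap1, the BCAP adaptor of PI3K, differed by 0.11 (SE 0.10, edgeR adjusted p = 0.668), and Grb2, the adaptor to RAS activation, by 0.14 (SE 0.08, edgeR adjusted p = 0.491).

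Of the lipid enzymes and their effectors, none was called. Plcg2, which makes the calcium-releasing second messenger, was at 614 ± 45.9 CPM in knockout, against 564 ± 18.2 CPM in wild type (log2 change 0.12, SE 0.08, edgeR adjusted p = 0.539). Pik3cd, the catalytic p110 delta subunit of PI3K, was at 534 ± 53.9 and 532 ± 41.5 CPM (log2 change 0.01, 95% interval −0.21 to 0.22, edgeR adjusted p = 0.990). Prkcb, the protein kinase C of the NF-kappaB branch, was at 458 ± 37.3 and 459 ± 22.4 CPM (log2 change −0.00, 95% interval −0.19 to 0.19, edgeR adjusted p = 0.995). Rasgrp3, a RAS exchange factor activated by diacylglycerol, differed by 0.14 (SE 0.10, edgeR adjusted p = 0.582).

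Among the phosphatases, Ptprc (CD45, which keeps SRC family kinases active) had the highest CPM of the 30 genes, at 2831 ± 206 in knockout and 2618 ± 105 in wild type (log2 change 0.11, SE 0.09, edgeR adjusted p = 0.614). Ptpn6, the gene of SHP-1, was at 1201 ± 99.8 and 1157 ± 26.1 CPM (log2 change 0.05, SE 0.09, edgeR adjusted p = 0.815). Inpp5d, the gene of SHIP1, which removes the PI3K product, was at 475 ± 55.7 and 436 ± 29.4 CPM (log2 change 0.12, SE 0.10, edgeR adjusted p = 0.618). The ratio of Pik3cd to Inpp5d per length, of kinase to opposing phosphatase, was 1.38, 1.33 and 1.40 in knockout and 1.53, 1.47 and 1.44 in wild type, without overlap. The ratio of Syk to Ptpn6 was 0.333, 0.367 and 0.445 in knockout and 0.361, 0.375 and 0.389 in wild type, and overlapped. The genotypes also overlapped in the ratios of Lyn to Syk, Cd79a to Cd22 and Malt1 to Bcl10. No test was made of these ratios, and the share of other gene pairs without overlap was not computed.

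The VAV exchange factors, which link the receptor to the actin cytoskeleton, lay on opposite sides of 0. Vav1 was at 302 ± 9.15 CPM in knockout, against 286 ± 8.02 CPM in wild type (log2 change 0.08, SE 0.07, edgeR adjusted p = 0.641). Vav2 was at 207, 211 and 199.7 CPM in knockout, against 215, 231 and 212 CPM in wild type, with each knockout library below each wild-type library (log2 change −0.09, SE 0.07, edgeR adjusted p = 0.581). The ratio of Vav1 to Vav2 per length was 2.83, 2.62 and 2.80 in knockout and 2.57, 2.302 and 2.47 in wild type, so the genotypes did not overlap. This ratio was not tested, and Vav2 by itself also did not overlap.

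Downstream, Malt1 and Bcl10 form the relay from protein kinase C to NF-kappaB, and Nfatc1 encodes a calcium-regulated transcription factor. Malt1 differed by −0.11 (SE 0.11, edgeR adjusted p = 0.680) and Bcl10 by 0.07 (SE 0.14, edgeR adjusted p = 0.864). Nfatc1 was at 288, 284 and 289 CPM in knockout, against 321, 316 and 294 CPM in wild type, a difference of −0.11 (SE 0.07, edgeR adjusted p = 0.503) without overlap. Its SD over the knockout libraries was 2.70 CPM, beside 14.7 CPM in wild type.

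Cbl (chr9:44149262-44234046, minus strand) encodes a ubiquitin ligase that ends receptor signals by tagging active kinases for degradation. It had the most negative log2 change of the 30 genes. It was at 125, 129 and 106 CPM in the knockout libraries (2, 3 and 4), against 151, 161 and 133 CPM in wild type. Each knockout library was below each wild-type library, and both libraries numbered 4 were the lowest of their group. The level in knockout was 0.808-fold of wild type (log2 change −0.31, SE 0.10, 95% interval −0.53 to −0.08, edgeR adjusted p = 0.254). With a term for the libraries numbered 4 in the model, Cbl fell by 0.31 on the log2 scale. It was then the only one of the 30 genes past the threshold (edgeR adjusted p = 0.0123). In that fit 4.40% of all tested genes passed, 2.59% higher and 1.81% lower. The term was chosen after earlier results of these data had set the libraries numbered 4 apart.

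The libraries numbered 4 differed from libraries 2 and 3 of both genotypes in 9 of the 30 genes (30%), where 14.8% of all tested genes differed (edgeR, adjusted p under 0.05, genotype in the model). Cd81 (1.34-fold, edgeR adjusted p = 0.00368), Bcl10 (1.30-fold, edgeR adjusted p = 0.00386) and Malt1 (1.19-fold, edgeR adjusted p = 0.0200) were higher in them, as were 7.83% of all tested genes. Cd22 was lower (0.743-fold, edgeR adjusted p = 0.00495). Also lower were Cd37, Cbl, Pik3ap1, Pik3cd and Inpp5d, at 0.839 to 0.858-fold, and 6.95% of all tested genes were lower. This is a joint fit over both genotypes, and no call was made within each genotype. The split was chosen after earlier results of these data had set the libraries numbered 4 apart. Its p-values therefore describe a grouping taken from the same data. Of 9 temperature-responsive genes, the summed level was 1304 CPM in knockout library 4 and 1271 CPM in wild-type library 4, and 749.5 to 829 CPM in the other libraries. Its part in these differences was not tested.

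The genotype differences were also read separately for the pair numbered 4 and for the other 4 libraries. In libraries 2 and 3, 22 of the 30 genes (73.3%) had a positive difference, where 49.3% of all tested genes had one, with a median of 0.07. In the pair numbered 4, 15 of the 30 (50%) were positive, where 49.9% of all genes were, with a median of −0.00. The absolute difference was smaller in the pair numbered 4 for 20 of the 30 genes, where it was smaller for 61.5% of all tested genes. Opposite signs in the 2 sets were found for 9 of the 30 and for 43.5% of all tested genes. Cd79a differed by 0.35 in libraries 2 and 3 and by −0.05 in the pair numbered 4, Cd79b by 0.35 and −0.03, and Ms4a1 by 0.43 and −0.08. Cbl was the exception among the larger values, with −0.30 and −0.33. Cd72 also kept most of its difference (0.23 and 0.16).

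**Figure D4:**
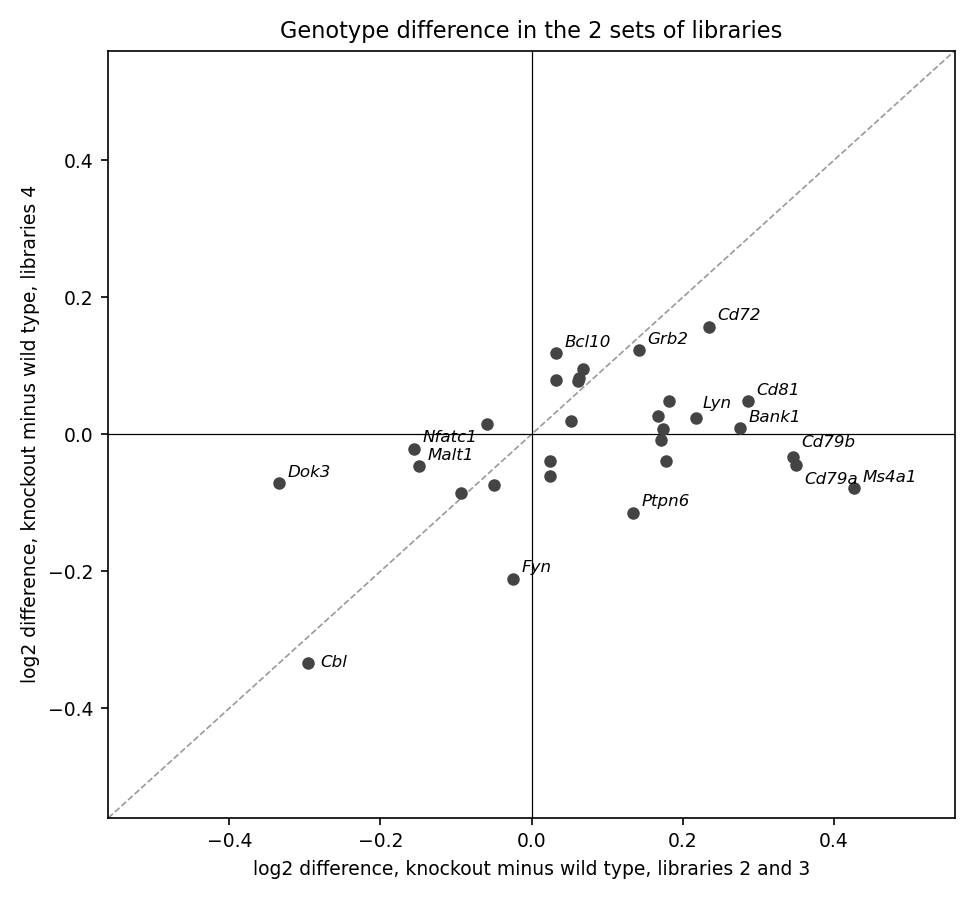
Log2 difference (knockout minus wild type) of each of the 30 genes in libraries 2 and 3 (horizontal) and in the pair numbered 4 (vertical), with the line of equality. Ms4a1, Cd79a and Cd79b lie far right and just below 0 (0.43, 0.35 and 0.35 against −0.08, −0.05 and −0.03), and Cbl lies near the line at −0.30 and −0.33.

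Tested alone, libraries 2 and 3 gave 10 called genes of the 30 (33.3%), where 24.0% of all tested genes were called. Cd79a, Cd79b, Cd81, Cd72, Ms4a1, Lyn, Bank1 and Pik3ap1 were higher in knockout (8 of the 30, beside 13.6% of all) and Dok3 and Cbl lower (2 of the 30, beside 10.4%). The largest positive changes were those of Ms4a1 (log2 change 0.43, edgeR adjusted p = 0.00150), Cd79a (0.35, edgeR adjusted p = 0.00395) and Cd79b (0.35, edgeR adjusted p = 0.00351). Dok3 had the most negative (−0.34, edgeR adjusted p = 0.00272). These fits hold 2 libraries per genotype, and the split was chosen with earlier results of these data known. The difference between the 2 sets was itself tested as an interaction of genotype and library number, and 0 of the 30 genes passed, where 1.19% of all tested genes did (edgeR, adjusted p under 0.05). An unadjusted p under 0.05 was found for 5 of them (16.7%) and for 16% of all genes. The 5 were Cd79a, Cd79b, Cd81, Ms4a1 and Dok3. The smallest adjusted p was that of Ms4a1 (log2 interaction −0.50, edgeR adjusted p = 0.0863). Without the filter on low counts, 3 of the 30 genes passed this test, Cd79a, Cd79b and Ms4a1, where 3.11% of all genes in that fit passed.

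Other genes of the pathway, taken as 11 lists that include coreceptors, kinases, adaptors, lipid enzymes, phosphatases, calcium, RAS and NF-kappaB genes, ubiquitin ligases and immunoglobulin chains, were read beside the 30. Of 146 such genes found, 141 were tested. Of these, 1 was called higher in knockout and 0 lower by edgeR, beside 0.184% and 0.221% of all tested genes. An unadjusted p under 0.05 was found for 18 of the 141, and for 13.4% of all tested genes. The median log2 change of the 141 was −0.02, and 62 were positive, where 48.8% of all tested genes were. The gene called was Ptpn22, which encodes a tyrosine phosphatase that restrains SRC and SYK family kinases. Ptpn22 was at 52.1, 64.6 and 63.7 CPM in knockout, against 35.8, 36.4 and 37.8 CPM in wild type. The lowest knockout library stood above the highest wild-type library, and Ptpn22 rose 1.64-fold (log2 change 0.71, SE 0.10, edgeR adjusted p = 0.0194). The call was lost without knockout library 3 (edgeR adjusted p = 0.0934), wild-type library 2 (0.118) or wild-type library 3 (0.136), with log2 changes of 0.66, 0.70 and 0.70.

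Of the 12 other phosphatase genes tested, 2 were positive, Ptpn22 among them, where 48.8% of all tested genes were. The median of the 12 was −0.05. The T cell kinase Zap70 was at 0.735 ± 0.199 CPM in knockout, against 2.01 ± 0.360 CPM in wild type (log2 change −1.44, SE 0.27, edgeR adjusted p = 0.0826). The T cell markers without Lck summed to 1.98, 1.44 and 1.24 CPM in knockout libraries 2, 3 and 4, against 1.27, 1.34 and 1.11 CPM in wild type. Their part in the Zap70 value was not tested. Zap70 passed with the term for the libraries numbered 4 (edgeR adjusted p = 0.0166). That fit also called Ptpn22, Prkcq and Ubash3b higher and Slamf6, Inpp4b and Rasgrp4 lower. With Zap70 these were 7 of the 141 genes, where 4.40% of all tested genes passed. Prkcq did not pass the alternative filter of at least 1 CPM in 3 libraries.

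The remaining lists held 0 calls each. Over all tested genes, 48.8% had a positive log2 change. Of the calcium genes, 11 of 18 were positive (median 0.05); Ppp3ca, the calcineurin catalytic subunit, differed by 0.22 (SE 0.07, edgeR adjusted p = 0.277) and the calcium channel gene Itpr3 by −0.24 (SE 0.08, edgeR adjusted p = 0.277). Of the RAS and MAP kinase genes, 7 of 19 were positive (median −0.04), with Mapk8 at −0.21 (SE 0.09, edgeR adjusted p = 0.376). In the NF-kappaB branch 3 of 14 were positive (median −0.08), and Ikbkb, the IKK beta kinase, differed by −0.21 (SE 0.09, edgeR adjusted p = 0.347). Of the PI3K and AKT genes 4 of 13 were positive (median −0.05), with Mtor at −0.17 and Pik3cg at 0.19. The genes with the smallest p among the other coreceptors (median 0.00) were Slamf6 at −0.23 and Ly9 at 0.22. Among the other adaptors (median −0.01) they were Grap at 0.15 and Lax1 at −0.09. In the list of ubiquitin ligases (median 0.02) they were Cblc at −0.37 and Ubash3b, which does not itself encode a ligase, at 0.43. Lck, the SRC family kinase of T cells and some B cells, differed by 0.22 within the tyrosine kinases (median −0.04).

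**Figure D5:**
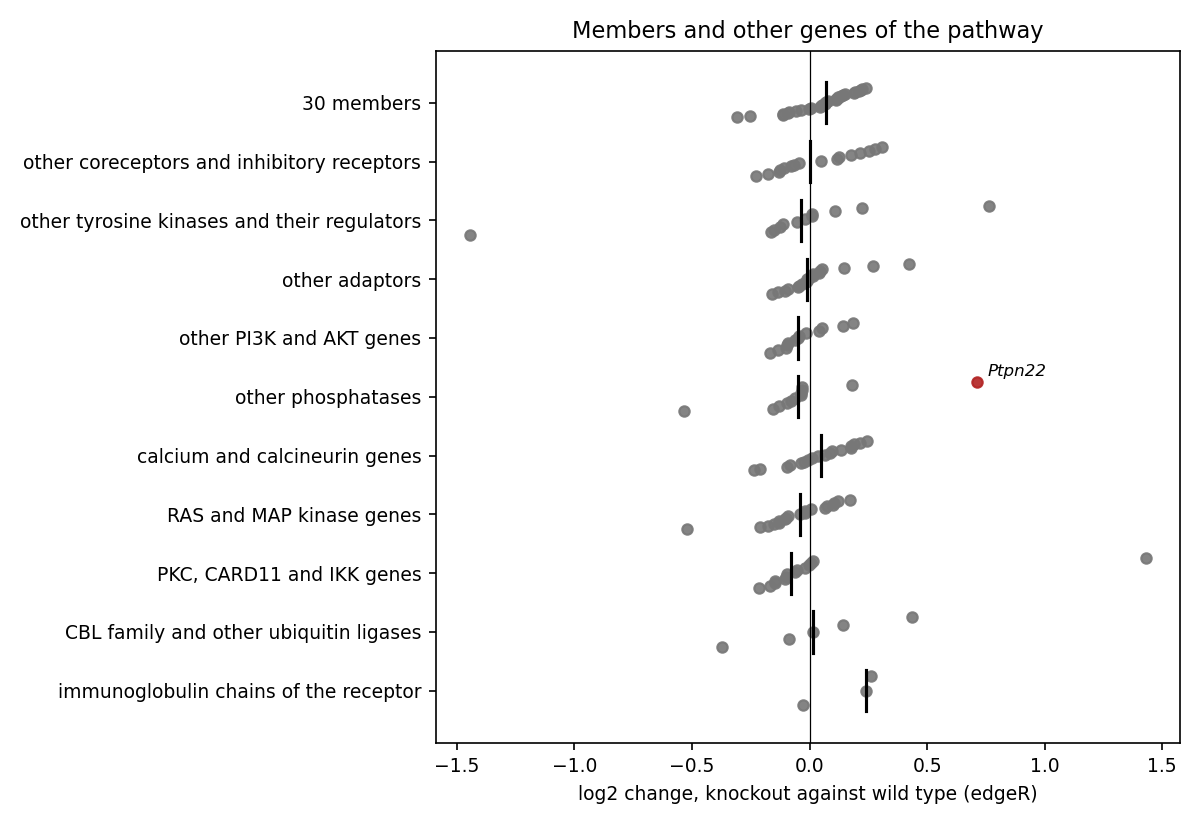
Log2 change (knockout minus wild type) of the 30 genes and of each tested gene in 10 other pathway lists; each point is 1 gene and the bars are medians. The list medians, except that of the immunoglobulin chains (0.24), lie between −0.08 and 0.07, and Ptpn22, at 0.71, is the one gene called.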

How the data were processed

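RNA-seq was deposited for 3 TET2 knockout and 3 wild-type libraries of splenic naive B cells, per the labels' protocols from Trizol and RNeasy RNA with a kit for stranded mRNA. The deposited values are whole-number fragment counts per gene name, made by the authors with featureCounts 1.5.1 over GENCODE vM3 exons for paired fragments, per the file headers, with the strand ignored. The submitters' processing notes name STAR 2.3.0e and build GRCm38.p3. Reads of overlapping genes on opposite strands therefore cannot be told apart. The deposited table also gives each gene's summed exon length, used for levels per length. Another 6 count columns match no sample used here and were left out.

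Counts were scaled by TMM and filtered with filterByExpr (minimum count 10). Knockout was compared with wild type over 13604 genes by edgeR's quasi-likelihood F test (edgeR 4.0.16, R 4.3.3) with no covariate, Benjamini-Hochberg adjustment over all tested genes and a threshold of 0.05. The common biological coefficient of variation was 12.4%. The 95% intervals come from this fit. Effects of the libraries numbered 4 and their interaction with genotype were further terms of the same test. On simulated counts of 13604 genes for this comparison, the test recovered 73.1% of the 1.5-fold changes and 100% of the 2-fold changes, and 14 of its 196 calls were false; the simulated libraries varied independently. An exact permutation test of 3 against 3 libraries cannot go below p = 0.1.

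All 30 members were named, and of each other pathway list the genes past the threshold or the 2 with the smallest p. Any other gene named, and the ratios printed, were picked with their values known. The members and lists were chosen with earlier results of these data known. So was the separation of the libraries numbered 4 from libraries 2 and 3. Alternatives were other scalings and filters, DESeq2 1.42.0, limma-voom (limma 3.58.1), a replicate block, a term for the libraries numbered 4, libraries 2 and 3 alone, and leaving out each library. Promoter windows came from RefSeq. Counts over the other pathway genes cover 11 lists, of which 1 is not reported here on its own.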

Additional observations from a re-analysis of the deposited data

Results flagged for a closer look

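Of the 141 tested genes of the other pathway lists, 2 passed the test of the interaction of genotype and the libraries numbered 4. The test was edgeR's, with adjusted p under 0.05 over all tested genes, of which 1.19% passed. Number 4 is 1 library per genotype, and the split was chosen with earlier results of these data known. Both genes were named after their values were seen. Cd53, a tetraspanin of leukocytes, was at 1004, 945 and 986 CPM in the knockout libraries (2, 3 and 4), against 654, 749.9 and 1059 CPM in wild type. Its log2 interaction was −0.58 (edgeR adjusted p = 0.0455). Tnfaip3, the gene of the NF-kappaB inhibitor A20, was at 81.3, 81.2 and 126.5 CPM in knockout and at 105, 104 and 111 CPM in wild type, with a log2 interaction of 0.56 (edgeR adjusted p = 0.00678). None of the 30 receptor pathway genes met this criterion.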

How the results depend on the processing

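Over all tested genes 55 were called. The number was 262 without the filter on low counts, 350 with DESeq2 (199 higher and 151 lower, beside 25 and 30), 599 with a term for the libraries numbered 4 (353 higher and 246 lower) and 3307 in libraries 2 and 3 alone. Leaving out each library in turn gave 17 to 900 (without knockout libraries 2, 3 and 4: 17, 26 and 146; without wild-type libraries 2, 3 and 4: 22, 21 and 900). Of the 30 receptor pathway genes, 0 were called; 1 was with the term for the libraries numbered 4, 10 in libraries 2 and 3 alone, and 0 to 3 when a library was left out (Ms4a1, Dok3 and Cbl without wild-type library 4). The median log2 change of the 30 stayed between 0.02 and 0.09 over all alternatives. The interaction with library number passed for 3 of the 30 without the filter (Cd79a, Cd79b and Ms4a1). The cause of these moves was not tested.

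Signs turned only for genes near 0. Cd22 was −0.0065 and Pik3cd −0.043 with library size only, and Pik3cd −0.011 with upper quartile scaling. Prkcb was 0.0076 without the filter, 0.00090 without receptor segment genes and 0.026 in libraries 2 and 3. With a library left out, the range was −0.080 to 0.18 for Cd22, −0.13 to 0.026 for Cd37, −0.082 to 0.0055 for Blk, −0.040 to 0.065 for Prkcb, −0.056 to 0.086 for Pik3cd, −0.0015 to 0.12 for Ptpn6 and −0.087 to 0.19 for Bcl10.

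A replicate block gave 85 called genes, 53 of them shared with the 55, and 0 of the 30. The deviations of same-numbered libraries correlated at 0.0857, 0.220 and 0.394 for numbers 2, 3 and 4, so not every pair was above 0.1 and the numbers were not taken as pairs. Scaling moved the median of all genes by less than 0.1. The effect of depth was not tested. The intervals of all 30 genes excluded 1.5-fold, and smaller changes of most of them were not resolved with 3 libraries a genotype.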
